A study of Mus musculus with 11 samples.

Results

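The genes described here are 36 genes of glycolysis and of the response to low oxygen, measured in mouse cerebellar tumours. They were taken by gene symbol from the 38406 rows of the count table, and all 36 were among the 15228 genes that passed the low-count filter. They comprise 2 glucose transporters, 9 enzymes of upper glycolysis, 2 enzymes of fructose-2,6-bisphosphate, 6 enzymes of lower glycolysis and 5 genes of lactate and pyruvate handling. The other 12 are 4 HIF subunits and prolyl hydroxylases and 8 targets of the hypoxia response.

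Glycolysis breaks glucose down to pyruvate in the cytosol. Pyruvate is either turned into lactate by lactate dehydrogenase and exported by monocarboxylate transporters, or oxidised in mitochondria. HIF-1α and HIF-2α are transcription factor subunits that prolyl hydroxylases mark for degradation when oxygen is plentiful. When oxygen is scarce they persist, and HIF-1α raises many glycolytic genes through the short motif ACGTG or GCGTG. MYC, which every tumour here carries, is also known to bind promoters of glycolytic genes at the E-box CACGTG.

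Each tumour was labelled as a medulloblastoma, a tumour of the cerebellum, from untreated CD1 mice. The MYC/Gfi1 group (2 libraries) had constitutive expression of MYC and Gfi1, and the MYC/Otx2 group (3 libraries) had constitutive expression of MYC and Otx2. In the S100b-cell group (3 libraries), MYC and Gfi1 were expressed in S100b-positive cells. In the N1ICD group (3 libraries), MYC and Gfi1 were expressed with N1ICD, the intracellular part of the Notch1 receptor, in Math1-positive cells. N1ICD differs from the other groups both in its oncogenes and in the cells that express them, and these cannot be told apart. There is no normal cerebellum among the samples, and the labels give neither the delivery of the oncogenes nor the ages of the mice. The labels do not state that replicate libraries are from different mice, so p-values measure the spread between these libraries, which may be technical.

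Library totals were 2.58 to 3.38 M counts in N1ICD, 6.53 to 8.33 M in the constitutive groups and 12.77 to 15.19 M in the S100b-cell group. Transcripts of the mitochondrial genome took 5.18 to 6.00% of counts in the constitutive groups, 14.7 to 18.5% in the S100b-cell group and 23.2 to 27.6% in N1ICD. Library names in the labels follow a separate style for the S100b-cell group and for N1ICD, so their handling as library sets and their tumour models cannot be told apart. MYC/Gfi1 replicate 2 stood apart: its 6 mature neuron markers summed to 2576 CPM (counts per 1 M counts of the library, after scaling), against 572 in replicate 1 and 76.3 to 473 in the other groups. Its 6 mature granule cell markers summed to 4405 CPM, against 157 in replicate 1 and 11.2 to 547 elsewhere; of these, Cbln3 and Cbln1 were at 0 in 1 library each and Gabra6 in 2. These are bulk samples, in which fewer cells of a type and less RNA per cell cannot be told apart.

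The promoters of 5 genes whose levels differed between groups are shown as examples that hold the motifs of HIF and MYC; they were picked for holding ACGTG. Ldha, Pkm and Pfkfb3 have a further start in the table, and those of Ldha and Pkm hold no ACGTG. Eno1 and Eno2, which also differed, hold none at any start. Each line is the 250 bases before a RefSeq transcription start (GRCm38.p6), read 5′ to 3′ on the strand of the gene, with ACGTG or its reverse complement CACGT in capitals. Where both overlap they spell the E-box CACGTG, which is the same on both strands.
Ldha, chr7:46845554-46845803, plus strand: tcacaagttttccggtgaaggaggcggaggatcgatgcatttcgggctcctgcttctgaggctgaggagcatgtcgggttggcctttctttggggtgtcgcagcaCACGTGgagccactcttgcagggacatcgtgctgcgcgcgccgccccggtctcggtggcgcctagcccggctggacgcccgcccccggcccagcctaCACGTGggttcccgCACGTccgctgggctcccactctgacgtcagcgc
Slc16a1, chr3:104638414-104638663, plus strand: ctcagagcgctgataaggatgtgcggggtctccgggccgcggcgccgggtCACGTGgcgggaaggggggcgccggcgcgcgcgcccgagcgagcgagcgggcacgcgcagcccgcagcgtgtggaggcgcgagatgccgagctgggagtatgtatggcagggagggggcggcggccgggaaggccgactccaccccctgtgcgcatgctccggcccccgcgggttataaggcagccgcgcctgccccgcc
Pfkfb3, chr2:11502091-11502340, minus strand: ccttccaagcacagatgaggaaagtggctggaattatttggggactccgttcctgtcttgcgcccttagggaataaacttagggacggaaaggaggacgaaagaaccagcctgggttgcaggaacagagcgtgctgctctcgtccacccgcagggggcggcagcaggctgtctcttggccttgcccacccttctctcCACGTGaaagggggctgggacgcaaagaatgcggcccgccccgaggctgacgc
Hk2, chr6:82774455-82774704, minus strand: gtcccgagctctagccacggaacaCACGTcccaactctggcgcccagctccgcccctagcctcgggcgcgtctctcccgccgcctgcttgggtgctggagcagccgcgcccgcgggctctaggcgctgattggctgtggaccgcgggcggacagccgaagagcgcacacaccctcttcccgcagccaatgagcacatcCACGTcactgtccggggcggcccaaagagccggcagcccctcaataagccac
Pkm, chr9:59656977-59657226, plus strand: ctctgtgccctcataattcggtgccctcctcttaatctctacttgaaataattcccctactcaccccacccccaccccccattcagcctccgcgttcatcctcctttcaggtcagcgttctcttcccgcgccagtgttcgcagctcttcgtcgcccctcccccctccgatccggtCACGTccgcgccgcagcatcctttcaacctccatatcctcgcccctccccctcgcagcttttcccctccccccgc

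Ldha held 3 such places before this start, of which 2 are CACGTG, at 145 and 48 bases before the start; the other begins 34 bases before it. Slc16a1 and Pfkfb3 each held CACGTG, at 200 and 53 bases before the start. Hk2 held CACGT at 226 and 52 bases before the start, and Pkm held it at 75 bases. In windows that also include 50 bases after the start, 33 of the 36 genes matched 47 promoters in the RefSeq table (Slc2a3, Epas1 and Ndrg1 had no match). ACGTG on either strand lay in 26 of these 47 promoters (55.3%), against 19.6% of 32851 mouse promoters of the same length. GCGTG lay in 57.4% against 32.4%, and CACGTG, which contains ACGTG, in 12.8% against 7.2%. Overlapping windows of 1 gene were counted separately in these shares, and 2 overlapping windows of Aldoa hold the same ACGTG match. ACGTG was found in at least 1 promoter of 7 of the 9 genes that differed in a pair of groups and of 16 of the 24 matched genes that did not. A match describes letters in this window and not a bound site.

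Of the 36 genes, 8 differed among the 4 groups. In edgeR's quasi-likelihood test of any difference among the groups, with Benjamini-Hochberg adjustment over all genes tested, these 8 passed an adjusted p of 0.05. That is 22.2%, against 28.4% of all genes tested. They were Eno1 (adjusted p = 0.00248), Pfkfb3 (0.009), Eno2 (0.0101), Slc16a1 (0.0119), Ldha (0.0208), Pkm (0.0252), Hk2 (0.0315) and Slc2a3 (0.0489). All but Slc2a3, and in addition Egln1 and Egln3, differed in at least 1 of 6 pairwise comparisons. The remaining 26 genes passed in none of these edgeR tests, which does not show that they were alike. DESeq2 called 7 of the 26 in at least 1 test (Pfkm, Aldoa, Aldoc, Pgk1, Vegfa, Car9 and Ndrg1), and edgeR with only the compared groups called 6 (Pfkm, Aldoa, Hif1a, Epas1, Car9 and Ddit4). Limma-voom called none of the 26. Hk1, Gpi1 and Ankrd37 were called only when 1 library was left out. The shares of all genes that these other fits called are not given here, so their counts do not set these genes apart. The most extreme values of the 36 genes were unevenly spread over the libraries. MYC/Otx2 replicate 3 had the highest level of 11 genes and the lowest of 2. MYC/Gfi1 replicate 2 had the highest level of 8 and the lowest of 5. MYC/Gfi1 replicate 1 had the lowest level of 8 and the highest of none. The same counts over all genes are not given here, so these do not set the 36 genes apart.

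**Figure D1:**
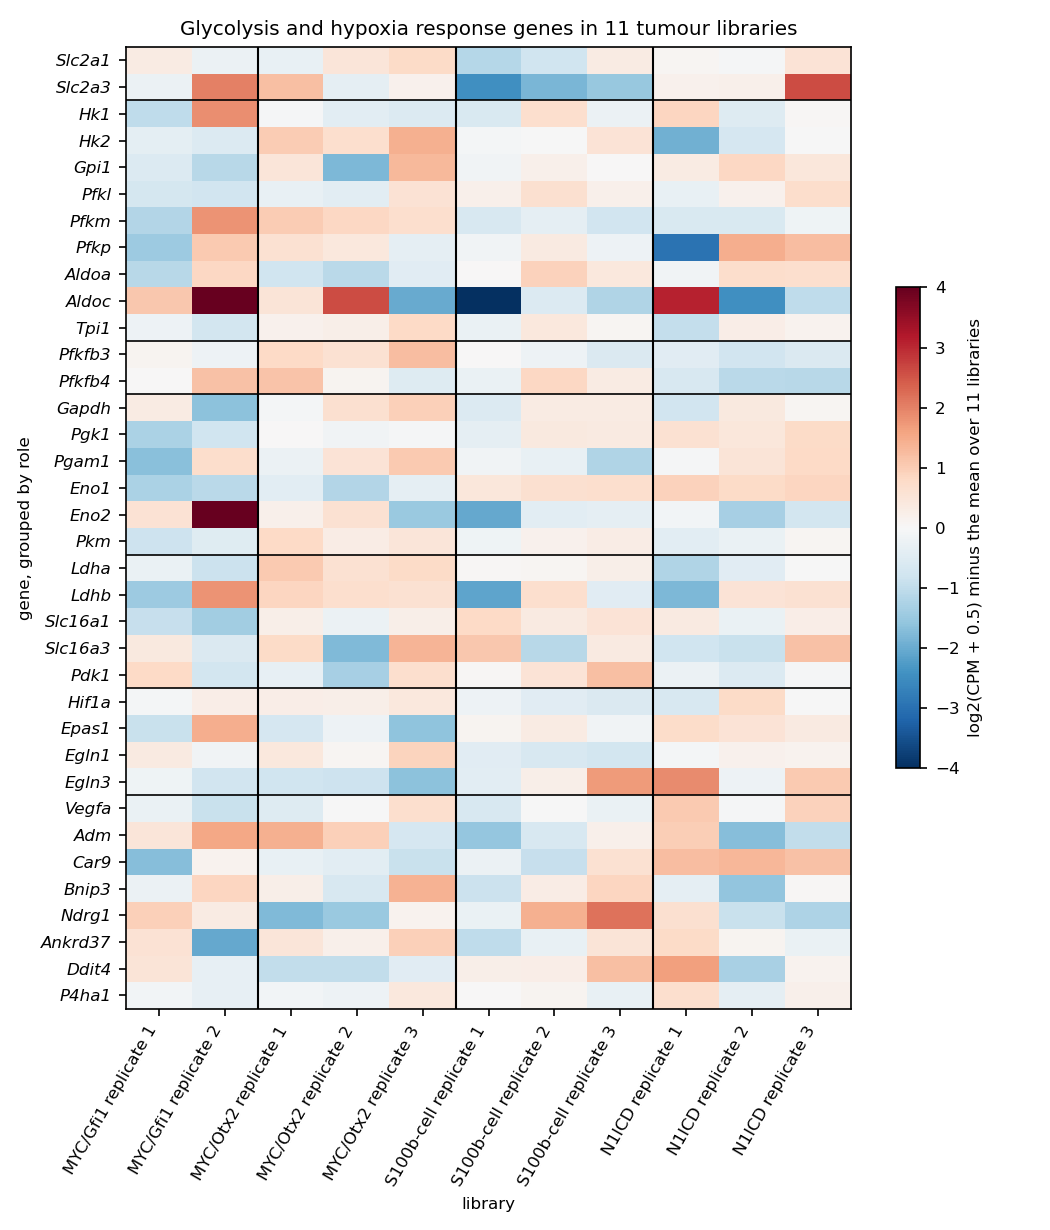
Level of each of the 36 genes (rows, grouped by role) in each of the 11 libraries (columns), as log2(CPM + 0.5) minus the gene's mean over the libraries; the colours saturate at the ends of the scale. Single libraries carry the strongest colours, such as Aldoc and Eno2 in MYC/Gfi1 replicate 2, whereas Ldha, Hk2 and Pfkfb3 are above their mean in every MYC/Otx2 library.

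The pairwise comparisons gave 18 calls in 9 genes, and in each of the 18 the libraries of the compared groups did not overlap. Lack of overlap was common, so it adds little to a call. It was found for 28 of the 36 genes in at least 1 pair, and 18 of these genes passed in none of the edgeR tests. The same counts over all genes are not given here. Against MYC/Gfi1, N1ICD had 2 of 36 genes higher (5.56%, against 5.47% of all genes tested) and 1 lower (2.78%, against 6.05%). The S100b-cell group had 2 higher (5.56%, against 2.34%) and 1 lower (2.78%, against 2.01%). MYC/Otx2 had 3 higher (8.33%, against 2.43%) and none lower (0 of 36, against 3.03%). These 3 comparisons share the MYC/Gfi1 libraries, so they are not independent of each other. All 9 of their calls were lost when only the compared groups were fitted (adjusted p 0.0721 to 0.154). Against MYC/Otx2, N1ICD had 2 higher (5.56%, against 12.0%) and 4 lower (11.1%, against 9.76%), and the S100b-cell group had 1 higher (2.78%, against 10.0%) and 2 lower (5.56%, against 7.89%). Between N1ICD and the S100b-cell group no gene passed in edgeR's test, against 0.808% of all genes higher and 0.407% lower in N1ICD. In that comparison 5 of the 36 had an unadjusted edgeR p under 0.05, beside 2844 of all genes tested (18.7%). DESeq2 called 1 of the 36 there, Slc2a3, and limma-voom none. Below, a gene described as not called is one that did not pass in the edgeR fit of all 4 groups.

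The medians moved little. Over the 36 genes the median log2 fold change was 0.18 for N1ICD, 0.22 for the S100b-cell group and 0.24 for MYC/Otx2 against MYC/Gfi1, beside −0.01, 0.01 and −0.14 over all genes tested. Against MYC/Otx2 it was −0.13 for N1ICD and −0.37 for the S100b-cell group, beside 0.14 and 0.17 over all genes. For N1ICD against the S100b-cell group it was 0.23, beside −0.06.

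**Figure D2:**
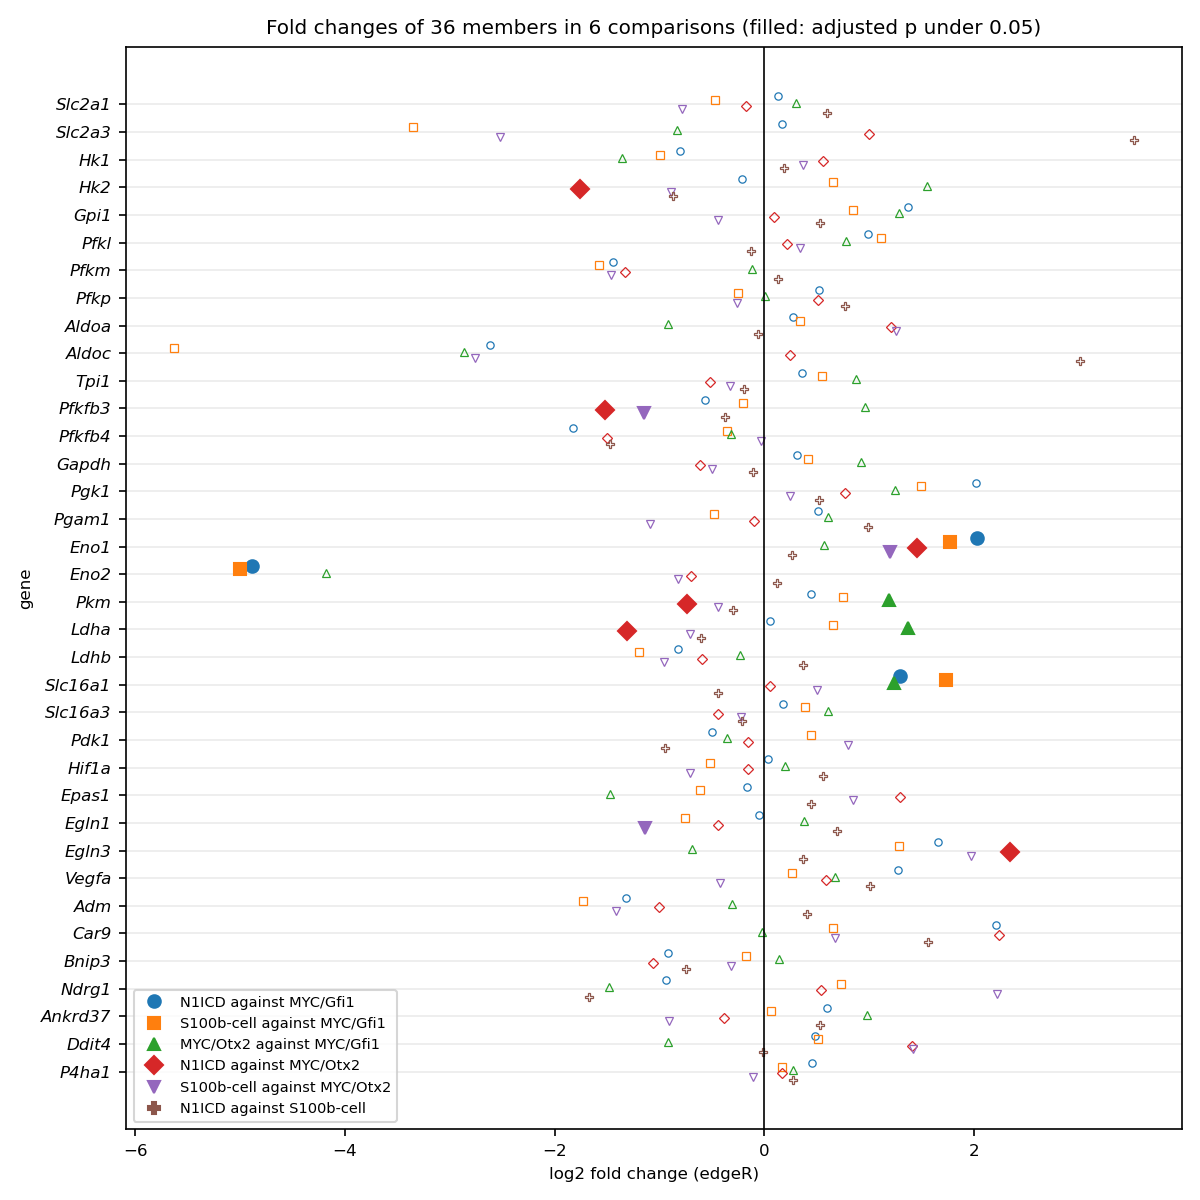
Log2 fold change (horizontal axis) of each of the 36 genes (vertical axis) in the 6 pairwise comparisons, with large filled symbols for an adjusted p under 0.05. The 18 filled symbols belong to 9 genes, and none belongs to N1ICD against the S100b-cell group.

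Lactate dehydrogenase A, encoded by Ldha, converts pyruvate to lactate, and its transcript was highest in MYC/Otx2 tumours. Ldha lies at chr7:46841475-46855627 (mm10, plus strand). Its level was 5006, 3683 and 4127 CPM in the 3 MYC/Otx2 libraries, 1996 and 1314 in MYC/Gfi1, 2464, 2550 and 2831 in the S100b-cell group, and 1036, 1758 and 2375 in N1ICD. Every MYC/Otx2 library was above every other library. Ldha was higher in MYC/Otx2 than in MYC/Gfi1 by 1.37 ± 0.34 (SE) on the log2 scale (edgeR adjusted p = 0.0472), and lower in N1ICD than in MYC/Otx2, at −1.31 ± 0.29 (adjusted p = 0.0136). The difference of the S100b-cell group from MYC/Otx2 was −0.71 ± 0.29 and did not pass (edgeR adjusted p = 0.114), though it did with those groups alone (0.0136). The call against MYC/Gfi1 was lost on leaving out MYC/Gfi1 replicate 2, any MYC/Otx2 library, any S100b-cell library or N1ICD replicate 2 (adjusted p 0.0543 to 0.189), and with upper-quartile scaling (0.0546). The call for N1ICD was lost without MYC/Otx2 replicate 1 (0.0519).

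Pyruvate kinase, encoded by Pkm, makes the pyruvate that lactate dehydrogenase uses, and was also highest in MYC/Otx2. Pkm (chr9:59656368-59679375, plus strand) was at 632, 446 and 509 CPM in MYC/Otx2, 321, 408 and 439 in the S100b-cell group, 267, 299 and 381 in N1ICD, and 203 and 260 in MYC/Gfi1. The MYC/Otx2 libraries lay above all others, and the S100b-cell and N1ICD libraries overlapped. Pkm was higher in MYC/Otx2 than in MYC/Gfi1 by 1.19 ± 0.26 (log2, edgeR adjusted p = 0.0337) and lower in N1ICD than in MYC/Otx2, at −0.74 ± 0.22 (adjusted p = 0.0388). The first call was lost without either MYC/Gfi1 library, any MYC/Otx2 library, or S100b-cell replicate 2 or 3 (adjusted p 0.0528 to 0.102). The other was lost without any MYC/Otx2 library, S100b-cell replicate 2 or 3, or N1ICD replicate 1 or 2 (0.0536 to 0.129). The counts do not tell the M1 from the M2 splice form of Pkm, since the assay reads the 3′ end.

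Hexokinase 2, which traps glucose in the cell as glucose-6-phosphate, was lower in N1ICD than in MYC/Otx2. Hk2 (chr6:82725025-82774454, minus strand) was at 214, 169 and 289 CPM in MYC/Otx2, 100.4, 106 and 156 in the S100b-cell group, 80.9 and 72.3 in MYC/Gfi1, and 27.9, 66.2 and 104 in N1ICD. All MYC/Otx2 libraries were above all the others. The difference was −1.76 ± 0.42 on the log2 scale (edgeR adjusted p = 0.0172), and it was lost without MYC/Otx2 replicate 3 (adjusted p = 0.0597). Hk2 in MYC/Otx2 against MYC/Gfi1 was at 1.55 ± 0.48 and did not pass (edgeR adjusted p = 0.0789); it passed in DESeq2 (0.0178) and limma-voom (0.0394). With those groups alone in edgeR, Hk2 was also lower in the S100b-cell group than in MYC/Otx2 (−0.89, adjusted p = 0.0308).

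Pfkfb3 makes fructose-2,6-bisphosphate, a potent allosteric activator of phosphofructokinase, and was lower in N1ICD and in the S100b-cell group than in MYC/Otx2. Pfkfb3 (chr2:11471433-11554077, minus strand) was at 71.5, 62.2 and 96.4 CPM in MYC/Otx2, 44.1 and 34.9 in MYC/Gfi1, 41.3, 35.2 and 26.8 in the S100b-cell group, and 29.6, 23.7 and 26.8 in N1ICD. The MYC/Otx2 libraries again lay above all others. The difference was −1.52 ± 0.26 for N1ICD (log2, edgeR adjusted p = 0.00461), which passed in every alternative run. It was −1.15 ± 0.26 for the S100b-cell group (adjusted p = 0.0158), which was lost without MYC/Otx2 replicate 3 or S100b-cell replicate 2 or 3 (adjusted p 0.053 to 0.0651). Against MYC/Gfi1, MYC/Otx2 was at 0.96 ± 0.29 and did not pass (edgeR adjusted p = 0.0773; 0.0256 in DESeq2).

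Ldha, Pkm, Hk2 and Pfkfb3, all called in a comparison with MYC/Otx2, had their highest levels in its 3 libraries. The share of all genes tested with this order is not given here, so it does not set these genes apart. In the MYC/Otx2 libraries the summed level of 6 markers of cycling cells was 2985 to 3880 CPM. It was 1545 to 2275 in MYC/Gfi1, 1574 to 2494 in the S100b-cell group and 1359 to 2000 in N1ICD. Birc5 and Top2a made most of these sums. Of the 6 markers, Birc5 and Ccnb1 were lower and Mki67 higher in N1ICD than in MYC/Otx2, Birc5 was lower and Mki67 higher in the S100b-cell group than in MYC/Otx2, none was called between MYC/Otx2 and MYC/Gfi1, and none was at 0 in any library. Mki67 was at 50.6 to 57.4 CPM in MYC/Otx2, 97.7 to 167 in the S100b-cell group and 162 to 277 in N1ICD. The part of cycling cells in the levels of the 4 genes was not tested.

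The monocarboxylate transporter MCT1, encoded by Slc16a1, carries lactate and pyruvate across the cell membrane and was lowest in MYC/Gfi1. Slc16a1 (chr3:104638668-104658462, plus strand) was at 60.4 and 43.1 CPM in MYC/Gfi1, 134, 98.3 and 135 in MYC/Otx2, 201, 148 and 168 in the S100b-cell group, and 147, 95.2 and 139 in N1ICD. Both MYC/Gfi1 libraries were below all 9 others. The log2 difference from MYC/Gfi1 was 1.74 ± 0.29 for the S100b-cell group (edgeR adjusted p = 0.0201), 1.30 ± 0.29 for N1ICD (adjusted p = 0.0212) and 1.24 ± 0.28 for MYC/Otx2 (adjusted p = 0.0386). All 3 values rest on the same 2 MYC/Gfi1 libraries, and without replicate 2 all 3 calls were lost. The call for N1ICD was also lost without N1ICD replicate 3 (adjusted p 0.0538 to 0.0999 over both). That for the S100b-cell group was also lost without S100b-cell replicate 1 or 3 (0.0696 to 0.09). That for MYC/Otx2 was also lost without any MYC/Otx2 or S100b-cell library or N1ICD replicate 3 (0.0502 to 0.149).

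**Figure D3:**
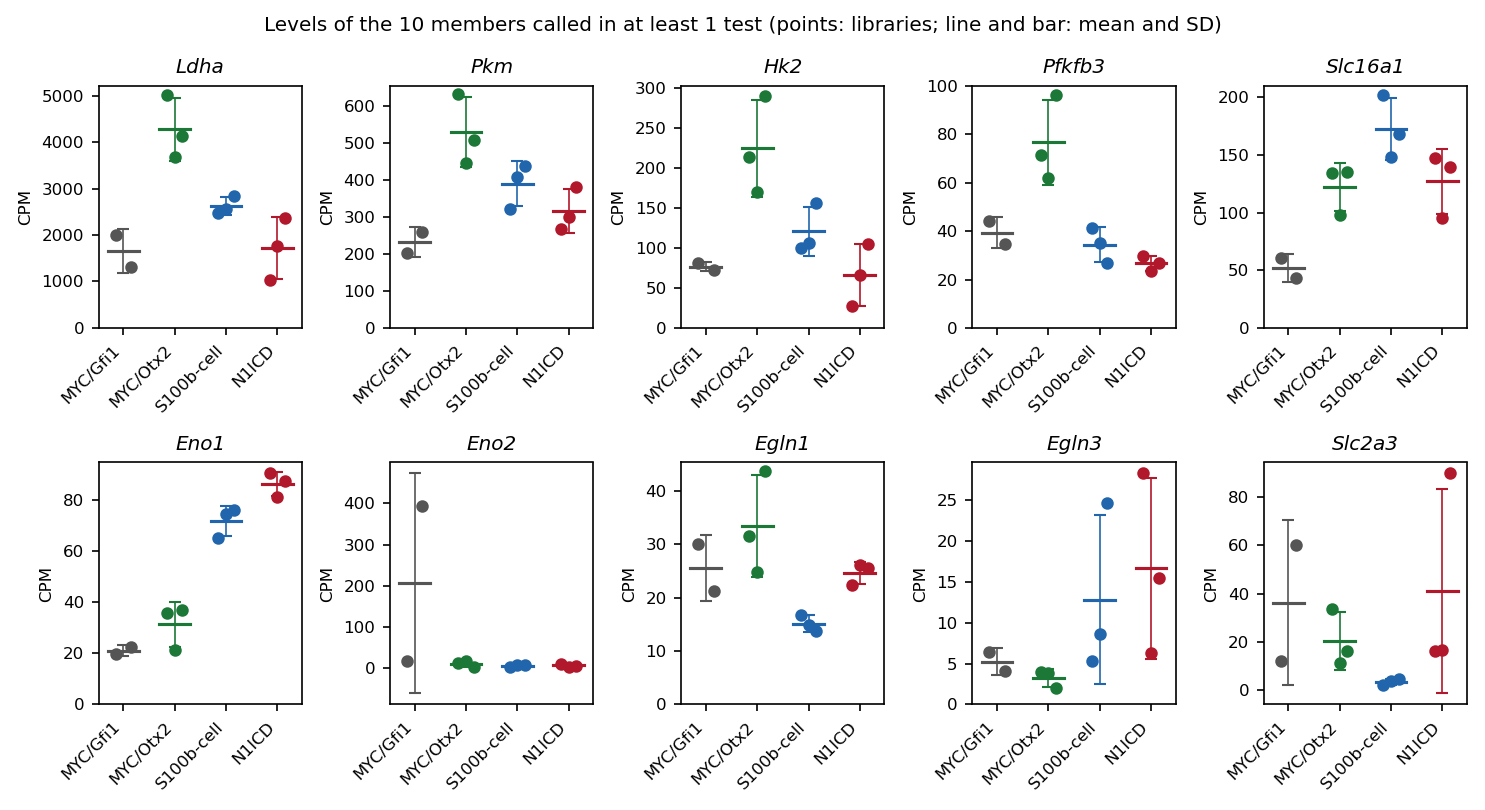
CPM (vertical axes, each with its own scale) of the 10 genes called in at least 1 test, by group; points are libraries, and the line and bar are the mean and SD. The 3 MYC/Otx2 libraries are above all others for Ldha, Pkm, Hk2 and Pfkfb3, the 2 MYC/Gfi1 libraries are below all others for Slc16a1, and 1 MYC/Gfi1 library at 394 CPM sets the mean of Eno2.

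Enolase makes phosphoenolpyruvate, and its ubiquitous and neuronal forms, encoded by Eno1 and Eno2, moved in opposite directions in N1ICD and the S100b-cell group against MYC/Gfi1. Eno1 (chr4:150236721-150248879, plus strand) was at 19.7 and 22.5 CPM in MYC/Gfi1, 35.9, 21.2 and 37.0 in MYC/Otx2, 65.0, 74.6 and 75.8 in the S100b-cell group, and 90.5, 81.2 and 87.2 in N1ICD. The groups were in that order, and the constitutive groups overlapped. Against MYC/Gfi1, Eno1 was higher by 2.03 ± 0.29 in N1ICD (log2, edgeR adjusted p = 0.00561) and by 1.77 ± 0.29 in the S100b-cell group (adjusted p = 0.0188). Against MYC/Otx2 it was higher by 1.46 ± 0.24 in N1ICD (adjusted p = 0.004) and by 1.20 ± 0.24 in the S100b-cell group (adjusted p = 0.0107). The S100b-cell call against MYC/Gfi1 was lost without MYC/Gfi1 replicate 2 or S100b-cell replicate 1 or 3 (adjusted p 0.0656 to 0.0708), and leaving out 1 library ended none of the other 3.

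The value of Eno1 is uncertain because its 3′ end is not unique. Of the 50-base words in the last 300 bases of its coding transcripts, 86.9% also occur in transcripts of 7 other genes, of which 2 have a row in the table. Eno1b shares 796 of these words and has no row under that symbol, and Gm4735 shares 561. The row of Gm4735 held 109 and 48 counts in MYC/Gfi1, 61, 134 and 203 in MYC/Otx2, 148, 201 and 176 in the S100b-cell group, and 14, 36 and 49 in N1ICD. With those counts added to Eno1, the differences in the order given above were 1.68, 1.44, 1.06 and 0.82 (adjusted p 0.00694, 0.023, 0.00966 and 0.0289), so each was smaller and still passed. Eno1b could not be added, so this sum does not settle the value of Eno1. Reads that fit more than 1 of these places may also have been dropped, which the files do not show.

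Eno2 (chr6:124760053-124769673, minus strand) was at 17.1 and 394 CPM in MYC/Gfi1, 12.9, 17.4 and 3.70 in MYC/Otx2, 2.33, 8.30 and 8.60 in the S100b-cell group, and 10.3, 4.18 and 6.49 in N1ICD. MYC/Gfi1 replicate 2 was far above the other 10 libraries, and replicate 1 was within the range of MYC/Otx2. Eno2 was lower than in MYC/Gfi1 in N1ICD, at −4.89 ± 1.15 (log2, edgeR adjusted p = 0.0269), and in the S100b-cell group, at −5.00 ± 1.13 (adjusted p = 0.039). DESeq2 also called it lower in MYC/Otx2 than in MYC/Gfi1 (adjusted p = 0.000988). Without MYC/Gfi1 replicate 2 the edgeR differences were −1.31 (adjusted p = 0.394) and −1.41 (adjusted p = 0.472). The call for N1ICD was also lost without N1ICD replicate 2 or 3 (from 0.0787) and with limma-voom (0.292). The call for the S100b-cell group was also lost without any MYC/Otx2 library, any S100b-cell library or N1ICD replicate 3 (from 0.0525) and with limma-voom (0.0875). With no low-count filter both were lost (0.068 and 0.0913). Markers of mature neurons moved with it: 4 of 6 were lower in N1ICD and 2 of 6 in the S100b-cell group than in MYC/Gfi1, their summed level was 122 to 461 CPM in the S100b-cell group and 76.3 to 177 in N1ICD, and none was at 0 in any library. Their part in the difference of Eno2 was not tested.

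The other genes of lower glycolysis were Gapdh, Pgk1 and Pgam1, and none was called. Gapdh encodes the dehydrogenase that follows the aldolase step, and Pgk1 the kinase that makes the first ATP of the pathway. They were listed at 5.37 to 34.8 CPM for Gapdh, 0.816 to 4.87 for Pgk1 and 2.33 to 18.1 for Pgam1, the mutase that precedes enolase. These levels should not be set against those of other genes. The 3′ end of Gapdh shares 78.3% of its 50-base words with 172 other genes, and its row held 1810 counts over all libraries while the rows of the 77 sharing genes in the table held 1934. The 3′ ends of Pgk1 and Pgam1 shared no such word, and the cause of their low counts was not tested. Pgk1 was at 4.29, 3.83 and 4.87 CPM in N1ICD against 0.816 and 1.31 in MYC/Gfi1, a difference of 2.02 ± 0.62 (log2) that did not pass (edgeR adjusted p = 0.0626) but did in DESeq2 (0.0132).

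**Figure D4:**
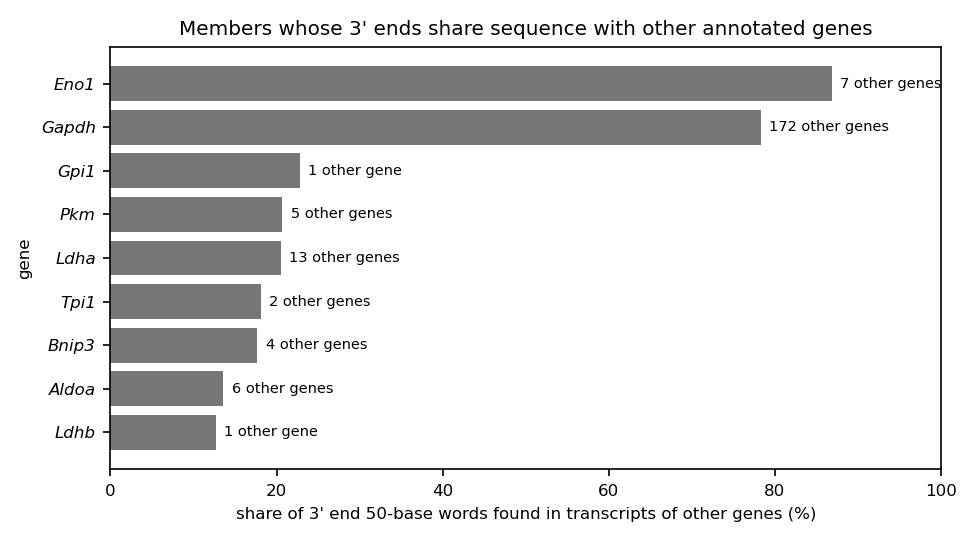
Share of the 50-base words of a gene's 3′ end that also occur in transcripts of other annotated genes (horizontal axis, %), for the 9 of the 36 genes with any. Eno1 (86.9%) and Gapdh (78.3%) stand apart; the others, Gpi1, Pkm, Ldha, Tpi1, Bnip3, Aldoa and Ldhb, are at 12.7 to 22.8%.

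Of the 9 genes of upper glycolysis, Hk2 alone was called. Glucose-6-phosphate isomerase, encoded by Gpi1, ran from 40.9 to 349 CPM, and both ends of that range were MYC/Otx2 libraries. Aldolase A splits fructose-1,6-bisphosphate, and Aldoa was at 244, 201 and 304 CPM in MYC/Otx2 against 429, 805 and 564 in the S100b-cell group and 383, 680 and 664 in N1ICD. These groups did not overlap, but the differences of 1.26 ± 0.46 and 1.21 ± 0.46 from MYC/Otx2 did not pass (log2, edgeR adjusted p = 0.0791 and 0.0833). They passed in DESeq2 (0.0435 and 0.0416) and with only the compared groups in edgeR (0.00998 and 0.0184). The annotation holds 2 genes with the symbol Aldoa, and the table has 1 row. Triose phosphate isomerase, Tpi1, ran from 105 to 356 CPM with no call.

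The phosphofructokinases commit sugar to glycolysis, and none of their genes was called. Pfkl, the liver-type form, was at 15.3 and 14.4 CPM in MYC/Gfi1 and at 18.6 to 40.6 in all other libraries. Pfkm, the muscle-type form, was at 6.53 and 53.4 CPM in MYC/Gfi1, 24.3 to 31.4 in MYC/Otx2, 8.68 to 11.8 in the S100b-cell group and 9.76 to 13.4 in N1ICD. With only the compared groups in edgeR, Pfkm was lower than in MYC/Otx2 in N1ICD (adjusted p = 0.018) and in the S100b-cell group (0.00436). The platelet-type form Pfkp was at 8.57, 190 and 164 CPM in N1ICD, so that 1 group held both its lowest and its highest level. Pfkfb4, the other fructose-2,6-bisphosphate enzyme listed, was at 3.00, 2.09 and 2.03 CPM in N1ICD and 3.35 to 11.8 elsewhere, with no call.

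The glucose transporters differed in how much they varied. Slc2a1, encoding GLUT1, ran from 26.3 to 98.9 CPM, and its groups overlapped in every comparison. Slc2a3 (chr6:122727809-122801640, minus strand), encoding the neuronal transporter GLUT3, was at 12.2 and 60.3 CPM in MYC/Gfi1, 33.8, 11.1 and 16.3 in MYC/Otx2, 2.20, 3.73 and 4.69 in the S100b-cell group, and 16.3, 16.7 and 89.7 in N1ICD. All 3 S100b-cell libraries were below the other 8. Slc2a3 passed in the test among 4 groups (edgeR adjusted p = 0.0489) and in no pair with edgeR. N1ICD against the S100b-cell group was at 3.53 ± 0.87 on the log2 scale (adjusted p = 0.0846), and the S100b-cell group was at −3.35 ± 0.90 against MYC/Gfi1 (0.0611) and −2.52 ± 0.83 against MYC/Otx2 (0.061). DESeq2 called all 3 (adjusted p = 0.000423, 0.00226 and 0.00761), and edgeR called the last with those groups alone (0.0089).

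Among the other genes of lactate and pyruvate handling, none was called. Slc16a3 encodes MCT4, the transporter that exports lactate from glycolytic cells, and ran from 26.7 to 233 CPM, with both ends in MYC/Otx2. Pdk1, the kinase that restrains pyruvate dehydrogenase and so the entry of pyruvate into mitochondria, ran from 42.6 to 248 CPM. Ldhb, the subunit that favours pyruvate, was at 13.8 and 134 CPM in MYC/Gfi1 and 8.48 to 69.8 in the other groups.

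Several pairs of related genes were compared within each library, as a log2 ratio of their counts, which removes the scaling between libraries; it does not remove differences in how well each 3′ end is counted. These ratios were not tested. The ratio of Hk2 to Hk1 was 1.65, 1.71 and 2.59 in MYC/Otx2, above all other libraries, whose values were 1.22 and −1.81 in MYC/Gfi1, 1.12, −0.06 and 1.39 in the S100b-cell group and −2.18, 0.45 and 0.53 in N1ICD. The ratio of Eno2 to Eno1 was −0.20 and 4.13 in MYC/Gfi1, −1.48, −0.28 and −3.30 in MYC/Otx2, −4.78, −3.16 and −3.13 in the S100b-cell group and −3.11, −4.22 and −3.71 in N1ICD. Ldha exceeded Ldhb in all 11 libraries, with a log2 ratio of Ldhb to Ldha from −8.18 to −3.29.

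The neural isoenzyme aldolase C, encoded by Aldoc, is a gene of astroglia and Purkinje cells and had the widest range of the 36 genes. It was at 256 and 4280 CPM in MYC/Gfi1, 172, 733 and 29.5 in MYC/Otx2, 2.72, 82.7 and 52.3 in the S100b-cell group, and 1028, 21.6 and 58.8 in N1ICD. The ratio of Aldoc to Aldoa ran from −7.29 to 2.51. Within N1ICD the highest Aldoc level was 47.6 times the lowest. The libraries with the highest Aldoc, MYC/Gfi1 replicate 2 and N1ICD replicate 1, also had the highest summed level of 6 astroglia markers, 795 and 1738 CPM. The other libraries had 233 in MYC/Gfi1, 133 to 237 in MYC/Otx2, 61.7 to 188 in the S100b-cell group and 48.5 and 125 in N1ICD, and none of the 6 markers was at 0. Slc1a3 alone made 1402 and 422 CPM of the sums in N1ICD replicate 1 and MYC/Gfi1 replicate 2, while Slc1a2 was at 4.29 and Gfap at 10.3 CPM in that N1ICD library. The part of astroglia in the level of Aldoc was not tested.

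MYC/Gfi1 replicate 2 was above replicate 1 for 18 of the 36 genes, and for 14 of them by more than 2 times. The same counts over all genes are not given here. Hk1, the hexokinase that predominates in brain, was at 253 CPM in replicate 2 and 34.6 in replicate 1. Pfkm was at 53.4 against 6.53, Ldhb at 134 against 13.8 and Slc2a3 at 60.3 against 12.2. Pfkp was at 143 against 25.3, Pgam1 at 14.2 against 2.33, Aldoa at 751 against 194 and Epas1 at 88.3 against 17.0. Eno2 and Aldoc followed the same order. Other genes were lower in replicate 2, among them Gapdh at 5.37 CPM against 22.7, Pdk1 at 64.05 against 189 and Ankrd37 at 0 against 2.565. Replicate 2 is the library with the highest neuron and granule cell marker levels, and the part of those cells was not tested.

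**Figure D5:**
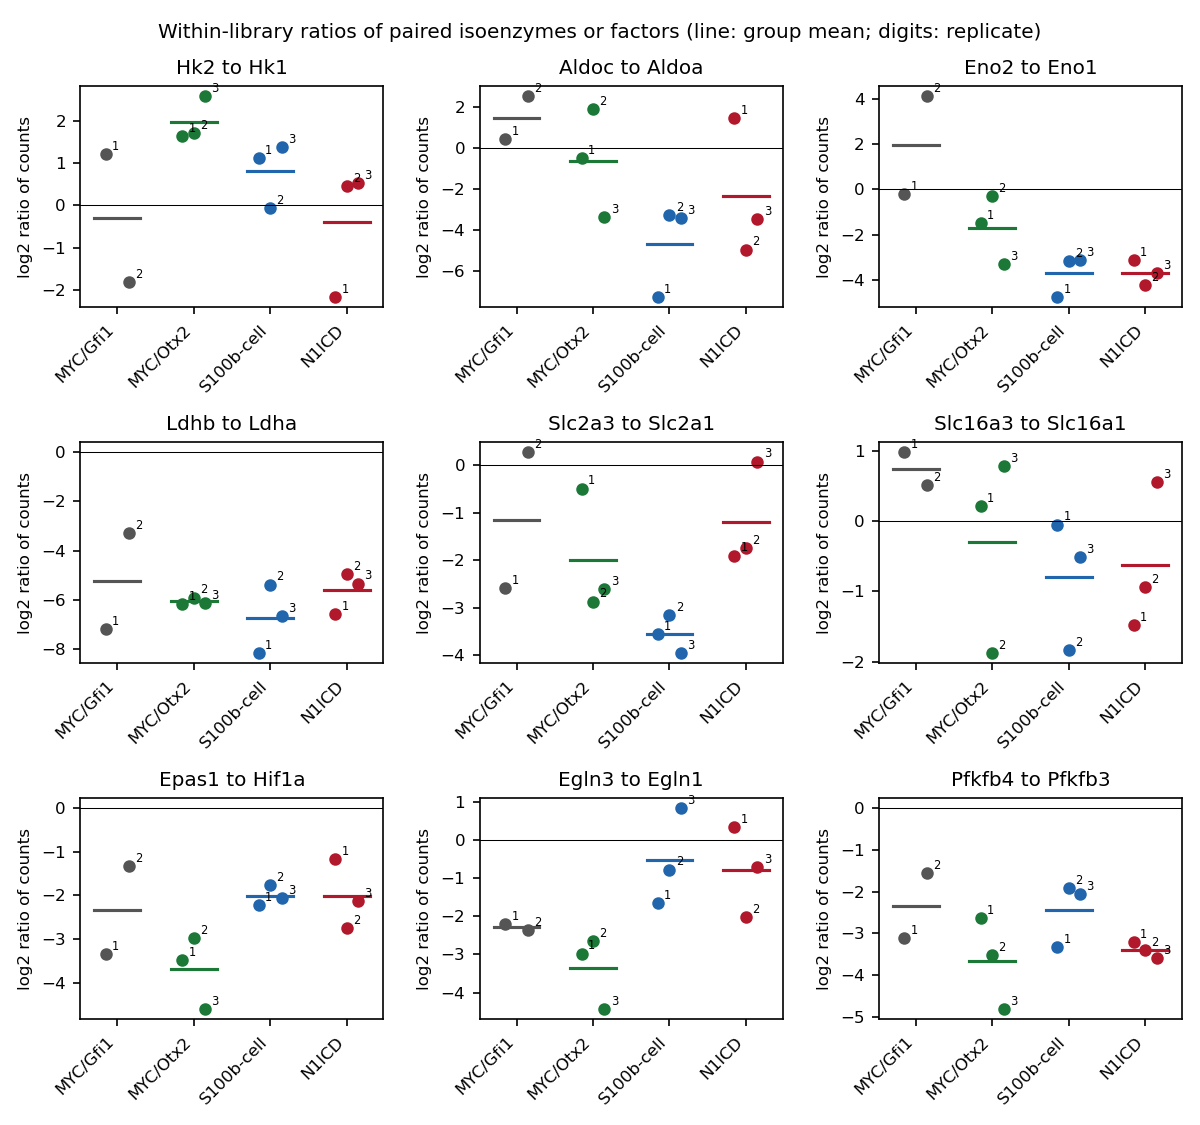
Log2 ratio of the counts of 9 pairs of related genes within each library (vertical axes, each with its own scale), by group; digits give the replicate and lines the group mean. Hk2 to Hk1 is above 1.65 or at it in every MYC/Otx2 library, and Eno2 to Eno1 is at −3.11 or below in every S100b-cell and N1ICD library.

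The remaining pairs differed less clearly. The ratio of Slc2a3 to Slc2a1 was −3.56, −3.15 and −3.96 in the S100b-cell group, below all other libraries (−2.87 to 0.28). The ratio of Slc16a3 to Slc16a1 was 0.98 and 0.51 in MYC/Gfi1 and spread from −1.88 to 0.78 in the others. The ratio of Pfkfb4 to Pfkfb3 was below 0 in all libraries, from −4.82 to −1.56.

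Neither HIF subunit was called in the edgeR fit of all 4 groups. Hif1a, encoding HIF-1α, was at 174 and 222 CPM in MYC/Gfi1, 221, 214 and 246 in MYC/Otx2, 159, 135 and 121 in the S100b-cell group, and 118, 313 and 181 in N1ICD. With only the compared groups in edgeR, Hif1a was lower in the S100b-cell group than in MYC/Otx2 (adjusted p = 0.012). HIF-1α is controlled largely through its protein, which was not measured. Epas1, encoding HIF-2α, was at 17.0 and 88.3 CPM in MYC/Gfi1, 19.8, 27.3 and 10.1 in MYC/Otx2, 34.2, 39.8 and 29.1 in the S100b-cell group, and 52.7, 46.7 and 41.4 in N1ICD. N1ICD and MYC/Otx2 did not overlap for Epas1, and the difference of 1.30 ± 0.54 did not pass (log2, edgeR adjusted p = 0.107), though it did with those groups alone (0.0431). The ratio of Epas1 to Hif1a was −3.48, −2.97 and −4.61 in MYC/Otx2 and −3.35 to −1.16 in the other groups.

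The prolyl hydroxylases that mark HIF for degradation included both called genes of the oxygen response. Egln1 (chr8:124908587-124949324, minus strand), encoding PHD2, was at 16.8, 14.8 and 13.8 CPM in the S100b-cell group, 31.6, 24.8 and 43.8 in MYC/Otx2, 30.0 and 21.2 in MYC/Gfi1, and 22.3, 26.1 and 25.6 in N1ICD. All 3 S100b-cell libraries were below the other 8. Egln1 was lower in the S100b-cell group than in MYC/Otx2, at −1.14 ± 0.28 (log2, edgeR adjusted p = 0.0242), a call lost without MYC/Otx2 replicate 1 or 3 or S100b-cell replicate 2 or 3 (adjusted p 0.057 to 0.0934).

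Egln3 (chr12:54178981-54203860, minus strand), encoding PHD3, is itself a target of HIF. It was at 28.3, 6.28 and 15.4 CPM in N1ICD, 5.31, 8.58 and 24.6 in the S100b-cell group, 6.41 and 4.07 in MYC/Gfi1, and 3.96, 3.86 and 1.96 in MYC/Otx2. The MYC/Otx2 libraries were below all others. Egln3 was higher in N1ICD than in MYC/Otx2 by 2.35 ± 0.71 (log2, edgeR adjusted p = 0.041). The call was lost without any MYC/Otx2 library, S100b-cell replicate 2, or N1ICD replicate 1 or 3 (adjusted p 0.0541 to 0.126), and with limma-voom (0.147). In the S100b-cell group against MYC/Otx2, Egln3 passed in DESeq2 (0.0304) and with those groups alone in edgeR (0.0473). The ratio of Egln3 to Egln1 was −2.98, −2.66 and −4.44 in MYC/Otx2, −2.21 and −2.36 in MYC/Gfi1, −1.66, −0.78 and 0.83 in the S100b-cell group, and 0.34, −2.03 and −0.72 in N1ICD. The constitutive groups were thus below the other groups in all libraries.

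None of the 8 hypoxia targets was called in the edgeR fit of all 4 groups. DESeq2, or edgeR with only the compared groups, called 4 of them: Vegfa, Car9, Ndrg1 and Ddit4. Ankrd37 was called only when 1 library was left out. The shares of all genes called by those fits are not given here. Vegfa, which encodes the growth factor that draws in blood vessels, was at 66.0, 30.3 and 60.5 CPM in N1ICD, 26.2 and 16.8 in MYC/Gfi1, 21.8, 31.5 and 50.5 in MYC/Otx2, and 20.3, 31.3 and 26.3 in the S100b-cell group. N1ICD and MYC/Gfi1 did not overlap, and their difference was 1.28 ± 0.46 (log2, edgeR adjusted p = 0.0954; 0.0469 in DESeq2). Car9, encoding a carbonic anhydrase that buffers cell pH and is widely used as a hypoxia marker, was at 4.29, 4.53 and 4.06 CPM in N1ICD, above all other libraries (0.117 to 2.58). Its difference from MYC/Otx2 was 2.24 ± 0.93 and did not pass (edgeR adjusted p = 0.107). It passed in DESeq2 (0.0499) and in edgeR with those groups alone (0.024).

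Ddit4, an inhibitor of mTORC1 signalling, was at 447, 57.5 and 157 CPM in N1ICD, 167, 171 and 328 in the S100b-cell group, 71.9, 72.0 and 104 in MYC/Otx2, and 201 and 112 in MYC/Gfi1. With only the compared groups in edgeR, Ddit4 was higher in the S100b-cell group than in MYC/Otx2 (adjusted p = 0.0117). Ndrg1, a stress response gene, ran from 8.48 to 137 CPM, with the highest value in S100b-cell replicate 3 and the lowest in MYC/Otx2 replicate 1; DESeq2 called it higher in the S100b-cell group than in MYC/Otx2 (adjusted p = 0.0167). Bnip3, which marks mitochondria for autophagy, ran from 20.6 to 168 CPM. P4ha1, a subunit of collagen prolyl hydroxylase, was the steadiest of the 8, from 25.8 to 53.2 CPM. Adm, encoding the vessel-widening peptide adrenomedullin, and Ankrd37 were low, at 1.05 to 14.1 CPM and at most 3.47 CPM; Ankrd37 had a count of 0 in MYC/Gfi1 replicate 2. N1ICD replicate 1 had the highest Vegfa, Ddit4 and P4ha1 of all libraries, and MYC/Otx2 replicate 3 the highest Bnip3 and Ankrd37.

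Markers of vessel cells were higher in N1ICD than in MYC/Otx2. The 8 endothelial markers summed to 262 to 640 CPM there, against 78.9 and 280 in MYC/Gfi1, 94.4 to 144 in MYC/Otx2 and 88.7 to 129 in the S100b-cell group, so that N1ICD and MYC/Gfi1 overlapped. Of the 8, 3 were higher in N1ICD than in MYC/Otx2, and none was called against MYC/Gfi1 or the S100b-cell group. Esam alone was at 387 and 297 CPM in N1ICD replicates 2 and 3, and at 22.7 in replicate 1. The 6 mural cell markers summed to 233, 6566 and 2258 CPM in N1ICD and 38.6 to 201 elsewhere. Acta2 and Rgs5 made 2584 and 3409 CPM of the sum in N1ICD replicate 2. In N1ICD all 6 were called higher than in MYC/Otx2, 5 of 6 than in MYC/Gfi1 and none against the S100b-cell group. Of the endothelial markers Cldn5 was at 0 in 3 libraries and Tek in 1; of the mural ones Tagln was at 0 in 2 and Myh11 in 5. The part of vessel cells in the levels of Epas1, Egln3, Vegfa or Car9 was not tested.

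Other genes of the same pathways, from lists that also drew on earlier results of these data, gave further values; for these genes no library was left out in turn. Of 40 other hypoxia response genes tested, 6 were higher (15.0%, against 12.0% of all genes) and 3 lower (7.5%, against 9.76%) in N1ICD than in MYC/Otx2. In the S100b-cell group 5 were higher (12.5%, against 10.0%) and 1 lower (2.5%, against 7.89%) than in MYC/Otx2. Against MYC/Gfi1, 2 were higher and 2 lower in N1ICD (5.0% each, against 5.47% and 6.05%), and 1 higher and 2 lower in MYC/Otx2 (2.5 and 5.0%, against 2.43% and 3.03%). Of 30 other genes of glycolysis and sugar metabolism, 2 were higher (6.67%, against 12.0%) and 5 lower (16.7%, against 9.76%) in N1ICD than in MYC/Otx2, and 1 higher (3.33%, against 10.0%) and 4 lower (13.3%, against 7.89%) in the S100b-cell group. Against MYC/Gfi1, 1 was higher in N1ICD and 1 in MYC/Otx2 (3.33% each, against 5.47% and 2.43%) and none lower. Of 13 genes of pyruvate entry into mitochondria and of monocarboxylate transport, 3 were lower in N1ICD than in MYC/Otx2 (23.1%, against 9.76%) and none higher, and 2 were higher in the S100b-cell group (15.4%, against 10.0%) and none lower. Against MYC/Gfi1, 1 was higher and 1 lower in N1ICD (7.69% each, against 5.47% and 6.05%). In N1ICD against the S100b-cell group, and in the S100b-cell group against MYC/Gfi1, edgeR called none on the 3 lists.

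The clearest of these differences set MYC/Otx2 apart. Ak4, a mitochondrial adenylate kinase, was at 708, 572 and 593 CPM in MYC/Otx2 and at 26.1 to 167 CPM in all other libraries. It was higher in MYC/Otx2 than in MYC/Gfi1 by 2.12 ± 0.45 (log2, edgeR adjusted p = 0.0331), and lower than in MYC/Otx2 by fitted values of −3.45 ± 0.41 in N1ICD (0.00107) and −2.85 ± 0.40 in the S100b-cell group (0.00237). Slc2a12, encoding the glucose transporter GLUT12, was at 48.0, 40.2 and 49.3 CPM in MYC/Otx2 and at most 2.09 in the others. Its log2 difference was 6.07 ± 1.24 between MYC/Otx2 and MYC/Gfi1 (adjusted p = 0.0294), where 1 of the MYC/Gfi1 libraries was at 0.

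Other genes were lower in MYC/Otx2. Plod1, a lysyl hydroxylase of collagen, was at 18.9, 14.2 and 10.7 CPM in MYC/Otx2 and at 52.6 to 170 in all other libraries. Pgf, encoding placental growth factor, a ligand of a VEGF receptor, was at 0.848, 0 and 0.116 CPM in MYC/Otx2, 14.9 and 6.10 in MYC/Gfi1, 13.2, 5.05 and 7.90 in the S100b-cell group, and 45.9, 107 and 45.9 in N1ICD. Plod1 was lower in MYC/Otx2 than in MYC/Gfi1, at −2.92 ± 0.48 (log2, edgeR adjusted p = 0.0146), and Pgf at −5.04 ± 0.96 (adjusted p = 0.0234). In N1ICD against MYC/Otx2, Plod1 was at 2.74 ± 0.45 (adjusted p = 0.00363) and Pgf at 7.70 ± 1.00 (adjusted p = 0.00148). In the S100b-cell group against MYC/Otx2 they were at 3.04 ± 0.45 (0.00306) and 4.77 ± 0.92 (0.00897). These comparisons share the MYC/Otx2 libraries.

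Some called genes of the sugar metabolism list, Taldo1, Pgd, Tkt and Rpe, encode enzymes of the pentose phosphate pathway, which branches from glycolysis to make NADPH and ribose. G6pdx, Pgls and Rpia of that pathway were not called. Taldo1, encoding transaldolase, was at 285, 240 and 279 CPM in MYC/Otx2 and 139, 104 and 103 in N1ICD, a difference of −1.22 ± 0.23 (log2, edgeR adjusted p = 0.00645). Pgd, which makes NADPH, was at 218 CPM or more in every MYC/Otx2 library, at 85.7, 109.8 and 143 CPM in N1ICD and at 140.5, 105 and 87.3 CPM in the S100b-cell group. It was lower than in MYC/Otx2 by fitted values of −1.15 ± 0.27 in N1ICD (adjusted p = 0.016) and −1.17 ± 0.27 in the S100b-cell group (adjusted p = 0.0172). Tkt, encoding transketolase, went the other way: it was at 521, 367 and 398 CPM in N1ICD against 185 and 234 in MYC/Gfi1, a difference of 1.03 ± 0.23 (adjusted p = 0.0206).

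At the entry of pyruvate into mitochondria, Pdp1, the phosphatase that activates pyruvate dehydrogenase, was lowest in N1ICD. It was at 4.29, 5.23 and 2.84 CPM there, 16.1 and 33.0 in MYC/Gfi1, 13.6, 15.1 and 18.1 in MYC/Otx2, and 12.0, 11.2 and 9.70 in the S100b-cell group. It was lower in N1ICD than in MYC/Gfi1, at −2.56 ± 0.42 (log2, edgeR adjusted p = 0.00846), and than in MYC/Otx2, at −1.91 ± 0.39 (adjusted p = 0.0093). Mpc2, a subunit of the mitochondrial pyruvate carrier, was at 60.8, 96.8 and 93.7 CPM in the S100b-cell group and 44.2, 36.2 and 33.7 in MYC/Otx2, a difference of 1.14 ± 0.24 (adjusted p = 0.0132). Bsg, encoding basigin, the chaperone that brings MCT1 and MCT4 to the membrane, was at 173, 486 and 372 CPM in the S100b-cell group and 151, 136 and 139 in MYC/Otx2 (1.27 ± 0.32, adjusted p = 0.0255).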

How the data were processed

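RNA of frozen tumours was extracted with TRIzol and sequenced as 11 libraries from the 3′ end (QuantSeq forward kit with molecular identifiers), per the labels' protocols. The authors deposited raw read counts per gene symbol, 1 column per library. Per the submitters' processing notes, STAR 2.4.1d and HTSeq 0.6.1 were used with mm10. Not given in the sources used here are the annotation, the strand setting and any collapse of identifiers, so overlapping genes may share reads.

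The 36 genes and all gene lists were chosen with earlier results of these data known. Of 38406 genes, 15228 passed filterByExpr by group and were fitted in edgeR 4.0.16 (R 4.3.3; TMM scaling, robust quasi-likelihood fit, 4 groups in 1 fit), because MYC/Gfi1 had 2 libraries. Two-sided p-values received Benjamini-Hochberg adjustment over all genes tested, separately for each comparison, with calls at 0.05. SE is the log2 fold change over the square root of F. CPM is over the TMM-scaled totals of tested genes. The fit had 7 residual degrees of freedom and a common biological coefficient of variation of 0.562. Ratios within a library add 0.5 to each count. Alternatives were RLE and upper-quartile factors, no mitochondrially encoded genes, no filter, DESeq2 1.42.0, limma-voom (limma 3.58.1), the compared groups alone, a replicate block and leaving out each library; adding Gm4735 to Eno1 was chosen after seeing the data. All called genes are named, with others by mean level, and isoform pairs are given throughout; of the wider lists, up to 4 called genes with the smallest p per list and comparison may be named. Aldoc, Pgk1 and other uncalled genes were given so that each of the 36 is accounted for. No pair of libraries within a group held copies of the same counts (chi-square per degree of freedom 22.56 to 138.03). Positions and 3′ ends come from GENCODE's GRCm38 (mm10) annotation and promoters from RefSeq (GRCm38.p6). The edgeR step was tested on simulated data.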

Additional observations from a re-analysis of the deposited data

How the results depend on the processing

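Over the 18 calls, 360 alternative values gave 273 that still passed, 87 that did not and 0 with the opposite sign. Pfkfb3 and Eno1 in N1ICD against MYC/Otx2, and Eno1 in the S100b-cell group against MYC/Otx2, passed in every alternative run. Counts of called genes by setting in this section are of the 36 genes alone, without the number of all genes called beside them. They do not show whether these genes moved apart from the rest. The number of the 36 genes called was 3 in each comparison with MYC/Gfi1, 6 in N1ICD and 3 in the S100b-cell group against MYC/Otx2, 0 between N1ICD and the S100b-cell group, and 8 among the 4 groups. With the compared groups alone, fewer samples entered every fit. The number was then 0 in N1ICD, 0 in the S100b-cell group and 0 in MYC/Otx2 against MYC/Gfi1. Against MYC/Otx2 it was 10 in N1ICD and 11 in the S100b-cell group, and the cause was not tested. With DESeq2 it was 5, 5 and 6 against MYC/Gfi1 in the same order, 7 in the S100b-cell group against MYC/Otx2, 1 between N1ICD and the S100b-cell group and 13 among the 4 groups; the cause was not tested. On leaving out each library in turn it ran from 1 to 5 for N1ICD, 0 to 5 for the S100b-cell group and 0 to 7 for MYC/Otx2 against MYC/Gfi1, highest without MYC/Gfi1 replicate 1 and lowest without MYC/Gfi1 replicate 2. The lowest count was also reached for N1ICD without N1ICD replicate 3, for the S100b-cell group without its replicate 1 or 3, and for MYC/Otx2 without its replicate 1 or 3 or S100b-cell replicate 2 or 3. It ran from 3 (without MYC/Otx2 replicate 1 or 3) to 10 (without MYC/Gfi1 replicate 1) for N1ICD against MYC/Otx2 and from 1 (without MYC/Otx2 replicate 3 or S100b-cell replicate 2 or 3) to 8 (without N1ICD replicate 1) for the S100b-cell group against MYC/Otx2. Among the 4 groups it ran from 4 (without MYC/Otx2 replicate 1 or 3) to 13 (without MYC/Gfi1 replicate 1). Leaving out a MYC/Gfi1 library leaves 1 sample there, which is assumed to vary like the other groups.

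Of 15 pairs of same-numbered libraries, 3 had a correlation of their deviations from the group mean over 0.1 (range −0.169 to 0.187). These 3 joined replicate 2 of MYC/Gfi1, MYC/Otx2 and the S100b-cell group with one another (0.139 to 0.187). In groups of 2 or 3 libraries such deviations mirror one another, so this check cannot decide whether equal numbers share a factor. With a replicate block, 1 gene was called in the S100b-cell group and 1 in MYC/Otx2 against MYC/Gfi1, and 5 among the 4 groups; N1ICD had 2 against MYC/Gfi1 and 4 against MYC/Otx2. The share of all calls that were higher in the S100b-cell group than in MYC/Gfi1 was 53.8%, against 44.6% with RLE factors, 62.6% with upper-quartile factors and 42.1% with DESeq2. For N1ICD it was 47.5% against 61.9% with limma-voom, and against the S100b-cell group 66.5% against 86.3%. Car9 had 1 and 12 counts in MYC/Gfi1 and 10, 13 and 10 in N1ICD, and Pgk1 7 and 9 in MYC/Gfi1, so few counts limit both genes.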

Other observations

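Markers of immune, oligodendroglial and red blood cells also differed between groups. The 8 markers of microglia and macrophages summed to 554 and 777 CPM in MYC/Gfi1, 123 to 431 in MYC/Otx2, 599.8 to 882 in the S100b-cell group and 165 to 261 in N1ICD, and 3 of 8 were lower in N1ICD than in MYC/Gfi1 by edgeR's test. The 6 oligodendrocyte markers summed to 256 and 784 CPM in MYC/Gfi1 and 30.6 to 138 elsewhere. The 3 red blood cell markers in the table summed to 45.4 to 367 CPM in N1ICD, 24.9 to 151 in the S100b-cell group and at most 42.6 in the constitutive groups. Of these markers P2ry12 and Mag were at 0 in 1 library each, Hba-a2 in 3, and Mog and Alas2 in 5 each.

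Of the hypoxia response genes outside the 36, 2 of 40 were higher and 2 lower in N1ICD than in MYC/Gfi1, 5.0% each against 5.47% and 6.05% of all genes. Those lower were Egln2 and Rora, an orphan nuclear receptor gene (−3.31 ± 0.79, edgeR adjusted p = 0.0282). Fam162a, a mitochondrial protein gene induced by HIF-1, was at 126, 191 and 205 CPM in N1ICD and 73.4 and 48.7 in MYC/Gfi1, a log2 difference of 1.51 ± 0.32 (edgeR adjusted p = 0.0186). Plod2, a lysyl hydroxylase of collagen, was at 27.0, 13.6 and 32.5 CPM against 4.31 and 1.60 (3.03 ± 0.74, adjusted p = 0.0297). Egln2, the prolyl hydroxylase PHD1, was at 21.0, 14.3 and 21.9 CPM in N1ICD, 52.1 and 46.8 in MYC/Gfi1 and 64.7, 67.1 and 38.5 in MYC/Otx2. It was lower in N1ICD than in MYC/Gfi1, at −1.38 ± 0.34 (edgeR adjusted p = 0.0319), and than in MYC/Otx2, at −1.57 ± 0.32 (adjusted p = 0.00869). Cited2, which competes with HIF-1α for a coactivator, was at 3.39, 5.11 and 9.36 CPM in MYC/Otx2 and 14.6 to 36.5 in all other libraries.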
